A study of Mus musculus with 12 samples.

Results

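The 10 genes described here encode subunits of the Polycomb repressive complexes, chosen by name from the 12-library RNA-Seq count table after its Ensembl identifiers had been matched to GRCm38 symbols. All 10 were among the 18911 genes listed, and all 10 passed the filter on low counts, as did 17076 genes in all. Ezh1, Ezh2, Eed, Suz12, Jarid2 and Mtf2 belong to Polycomb repressive complex 2 (PRC2), and Rnf2, Bmi1, Cbx2 and Cbx8 to Polycomb repressive complex 1 (PRC1).

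PRC2 methylates lysine 27 of histone H3 through its catalytic subunit, Ezh2 or Ezh1, which works only when held together with Eed and Suz12. Canonical PRC1 reads that mark through a Cbx subunit and places ubiquitin on histone H2A through Rnf2 (RING1B) and a partner such as Bmi1. The complexes keep developmental regulators silent, and they act on many of the loci that trithorax-group H3K4 methyltransferases such as KMT2A keep open. In neural progenitors they are known for holding back differentiation genes and the cell cycle inhibitors of the Cdkn2a locus.

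The libraries were poly(A) RNA from mouse neural progenitor cell (mNPC) cultures, grown from hippocampi dissected at postnatal day 0, with 3 libraries for each of 4 genotypes on C57BL/6J. Kmt2a+/+ is wild type, and Kmt2a+/LSL carries on 1 Kmt2a allele a lox-stop-lox (LSL) cassette in intron 1 that ends the transcript early. The nes-cre+/- control carries 1 copy of a Cre recombinase transgene driven by the nestin promoter with both Kmt2a alleles intact, and nes-cre+/-Kmt2a+/LSL carries the transgene and the LSL allele, whose cassette Cre removes in nestin-expressing cells. The LSL mice are a single line, and the labels do not say whether a culture came from 1 pup or from a pool, nor whether same-numbered replicates shared a litter, so the p-values measure the spread between these cultures, which may be technical.

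Kmt2a itself followed the labels. It had 6916, 7194 and 6720.5 in Kmt2a+/+, 3972, 3979 and 3991 in Kmt2a+/LSL, 6777, 7427 and 7167 in nes-cre+/-, and 6535, 6814 and 6205 in nes-cre+/-Kmt2a+/LSL, as normalized counts (counts scaled to a common library size by the TMM method) in replicates 1 to 3. Every Kmt2a+/LSL library lay below the other 9, at -0.80 ± 0.13 (SE) on the log2 scale from Kmt2a+/+ (adjusted p = 0.281), and nes-cre+/-Kmt2a+/LSL lay 0.71 ± 0.12 above Kmt2a+/LSL (adjusted p = 1), both under an unadjusted p of 0.05 and neither called. Library totals ran from 18280008 to 28596919 counts. Markers of neural progenitors were abundant, with Nes at 7578 to 18156 and Sox2 at 5408 to 9281 normalized counts. The 10 progenitor markers summed to 8247 to 15966 CPM (counts as a share of the library total, on a common scale), against 1032 to 1919.5 for 6 neuronal, 559 to 2845 for 5 astrocyte and 549 to 1505 for 6 oligodendrocyte-lineage markers. The microglial, endothelial, meningeal and erythroid markers found in the table each summed to at most 3.39 CPM. A lower level in such bulk RNA cannot be told apart from fewer cells of the type that expresses the gene.

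Kmt2a+/+ replicate 1 stood apart. Its median correlation with the other libraries of its genotype was 0.903, against 0.939 to 0.984 for the other 11 libraries, and its total was the lowest. It had the highest progenitor marker sum (15966 CPM, others at most 11478) and the lowest astrocyte and oligodendrocyte-lineage sums (559 and 549 CPM, others at least 1013 and 1002), but also the highest neuronal sum (1919.5 CPM, others at most 1724). The progenitor and neuronal sums rest mostly on a few abundant genes, so single markers need not follow them. Over the 12 libraries Map2 had 23473 to 44906 normalized counts, and each other neuronal marker at most 675. Among progenitor markers Fabp7 ran from 58218 to 214648, but Hes5 only from 51.3 to 3822. The part of these sums in the levels below was not tested. Kmt2a+/+ replicate 1 held the highest count of Ezh2, Suz12, Mtf2, Rnf2 and Bmi1 and the lowest of Cbx2, Cbx8 and Jarid2 among the 12 libraries. The Kmt2a+/LSL values of the 10 genes and of the list genes relative to Kmt2a+/+ are therefore given with and without it.

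Promoter windows were found for 9 of the 10 genes, all but Cbx2, in RefSeq (GRCm38.p6), and 4 of them are shown because their genes mark both ends of the pattern over libraries described below. Each window runs from 250 bases before to 20 bases after the RefSeq start site, 5′ to 3′ on the gene's strand. The gene spans given below come from another annotation. For Ezh2 and Cbx8 the RefSeq start lies inside that span, and the Ezh2 window lies wholly within it, so positions hold for the RefSeq start only. Ezh2 (chr6:47595011-47595280, minus strand), Suz12 (chr11:79992856-79993125, plus strand) and Bmi1 (chr2:18676768-18677037, plus strand) varied together, and Cbx8 (chr11:119040894-119041163, minus strand) varied against them. Capitals mark matches on either strand to E2F-type words (TTTCCCGC, TTTGGCGC, TTTGGCGG or TTTCGCGC), to CCAAT or to the GC box GGGCGGGG, and no match in these 4 windows overlaps another.
Ezh2: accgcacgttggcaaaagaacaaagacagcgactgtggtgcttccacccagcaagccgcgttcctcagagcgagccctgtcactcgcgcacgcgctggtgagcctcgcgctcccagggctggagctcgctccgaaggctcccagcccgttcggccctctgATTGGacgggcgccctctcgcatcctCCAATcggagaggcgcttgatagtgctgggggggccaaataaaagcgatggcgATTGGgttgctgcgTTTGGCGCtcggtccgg
Suz12: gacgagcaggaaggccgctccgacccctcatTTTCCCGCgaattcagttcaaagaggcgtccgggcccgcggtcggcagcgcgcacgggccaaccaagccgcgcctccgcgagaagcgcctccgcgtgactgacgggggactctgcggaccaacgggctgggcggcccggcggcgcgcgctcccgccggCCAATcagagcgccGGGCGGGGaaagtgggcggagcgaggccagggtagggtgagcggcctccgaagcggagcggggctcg
Bmi1: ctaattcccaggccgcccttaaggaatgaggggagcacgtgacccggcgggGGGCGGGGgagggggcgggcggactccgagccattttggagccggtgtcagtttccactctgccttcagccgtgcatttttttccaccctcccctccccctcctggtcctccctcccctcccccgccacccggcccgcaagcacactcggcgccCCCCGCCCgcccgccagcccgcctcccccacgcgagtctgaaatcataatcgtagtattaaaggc
Cbx8: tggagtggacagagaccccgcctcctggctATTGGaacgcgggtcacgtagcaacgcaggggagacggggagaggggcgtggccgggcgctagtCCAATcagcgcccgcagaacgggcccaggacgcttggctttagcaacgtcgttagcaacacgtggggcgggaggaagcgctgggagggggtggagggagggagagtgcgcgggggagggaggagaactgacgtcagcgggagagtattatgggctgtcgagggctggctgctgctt

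Ezh2 and Suz12 were the only 2 of the 9 genes with an E2F-type word in the window, a word found in 2.12% of 32841 RefSeq windows of this length. In Ezh2 it began at base 4 after the start site and in Suz12 it began 219 bases before it. CCAAT occurred in windows of 5 genes (35.4% of all windows), with 3 matches in Ezh2, 1 in Suz12 and 2 in Cbx8. The GC box occurred in 5 genes (17.0% of all windows), with 2 matches in Bmi1. In the 4 windows shown, CpG pairs numbered 27 in Ezh2, 41 in Suz12, 22 in Bmi1 and 23 in Cbx8, against a median of 6 over all windows. A match describes the letters of these windows, not a binding site.

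Across the 4 genotypes, 0 of the 10 Polycomb genes were called in any of 5 comparisons at an adjusted p under 0.05 (edgeR quasi-likelihood test, Benjamini-Hochberg over 17076 genes), and 0 passed an unadjusted p under 0.05. Over all genes the share called was likewise 0%. With Kmt2a+/+ replicate 1 left out 0 of the 10 were called, beside 0.0118% of genes for Kmt2a+/LSL against Kmt2a+/+ and 0.00589% for nes-cre+/-Kmt2a+/LSL against Kmt2a+/LSL. At an unadjusted p under 0.05 the share of all genes was 1.79% for Kmt2a+/LSL against Kmt2a+/+, 1.61% for nes-cre+/-Kmt2a+/LSL against Kmt2a+/LSL, 1.11% for nes-cre+/-Kmt2a+/LSL against nes-cre+/-, 1.4% for nes-cre+/- against Kmt2a+/+, and 1.73% for the difference between the LSL effects with and without nestin-Cre. DESeq2's Wald test, the same test with an empirical null and limma-voom called 0 of the 10 genes too, and limma-voom alone of these placed any under an unadjusted p of 0.05 (Suz12 in 2 comparisons and Rnf2 in 1). In the same limma-voom fits 7.68% of all genes did so for Kmt2a+/LSL against Kmt2a+/+ and 6.37% for nes-cre+/- against Kmt2a+/+, the 2 comparisons of Suz12, and 5.43% for the difference between the LSL effects, that of Rnf2, so 1 gene of 10 is near the background.

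Outside Eed, the fitted log2 fold changes lay between -0.35 and 0.37 for Kmt2a+/LSL against Kmt2a+/+ and between -0.26 and 0.13 for nes-cre+/-Kmt2a+/LSL against Kmt2a+/LSL. The 95% confidence intervals of those 9 genes had a median width of 1.53 on the log2 scale, so the data bound the changes only loosely. Without Kmt2a+/+ replicate 1 the median width for Kmt2a+/LSL against Kmt2a+/+ was 1.02. The median over the 10 genes was -0.047 for Kmt2a+/LSL against Kmt2a+/+ and 0.036 for nes-cre+/-Kmt2a+/LSL against Kmt2a+/LSL, beside 0.0011 and 0.0017 over all genes tested. With 3 libraries a genotype, the two-sided exact permutation test of a single gene cannot give a p below 0.1.

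**Figure D1:**
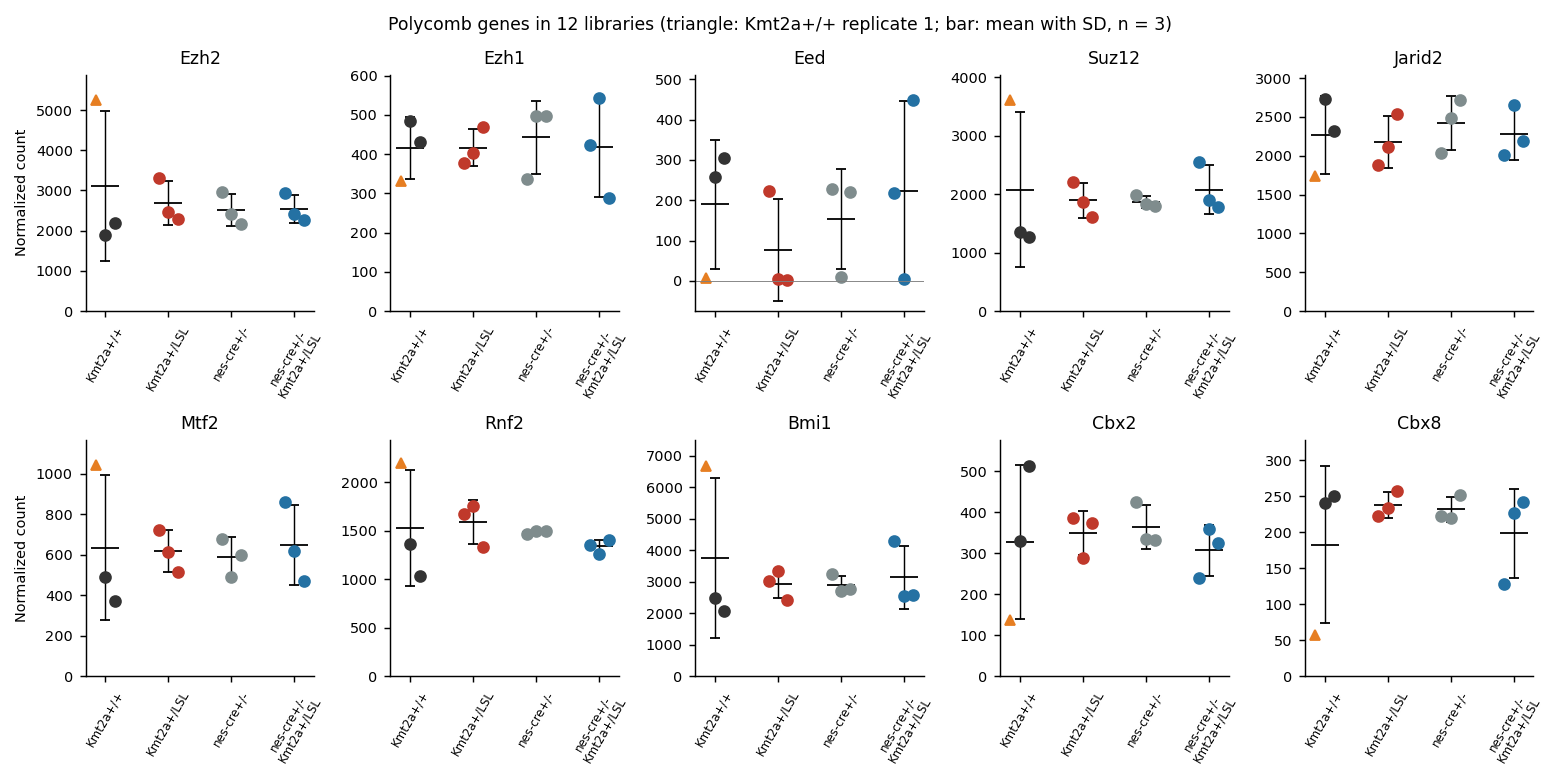
Normalized counts (vertical axes) of the 10 Polycomb genes in the 12 libraries, by genotype, with the mean and SD of 3 libraries; the triangle is Kmt2a+/+ replicate 1. Ezh2, Suz12, Mtf2, Rnf2 and Bmi1 are highest and Cbx2, Cbx8 and Jarid2 lowest in that library, and Eed lies near 0 in 5 libraries.

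Ezh2 (GRCm38 chr6:47530139-47595341, minus strand, ENSMUSG00000029687), the main H3K27 methyltransferase of dividing cells, had normalized counts of 5247, 1891 and 2197 in Kmt2a+/+, 3318, 2459 and 2299 in Kmt2a+/LSL, 2957, 2411 and 2172 in nes-cre+/-, and 2943, 2413 and 2269.8 in nes-cre+/-Kmt2a+/LSL. Kmt2a+/+ replicate 1 lay far above the rest, while the other 11 libraries spanned 1891 to 3318. With all 12 libraries every pair of genotypes overlapped. The means were 3112 ± 1855, 2692 ± 548, 2513 ± 402 and 2542 ± 355 (SD, n = 3) in the same order. Relative to Kmt2a+/+, Kmt2a+/LSL had a log2 fold change of -0.21 ± 0.34 (SE; 95% CI -0.95 to 0.53, adjusted p = 1). It was 0.40 ± 0.20 without Kmt2a+/+ replicate 1 (adjusted p = 0.562), with the sign turned. nes-cre+/-Kmt2a+/LSL against Kmt2a+/LSL gave -0.083 ± 0.34 (95% CI -0.82 to 0.66).

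Ezh1 (chr11:101191115-101226463, minus strand, ENSMUSG00000006920), the weaker methyltransferase that persists in non-dividing cells, had 331, 486 and 430.1 in Kmt2a+/+, 378, 404 and 469 in Kmt2a+/LSL, 336, 497 and 498 in nes-cre+/-, and 422, 543 and 287 in nes-cre+/-Kmt2a+/LSL. Its 12 values spanned 1.89-fold, and all genotypes overlapped. The 4 means lay between 415 in Kmt2a+/+ and 444 in nes-cre+/-. Kmt2a+/LSL against Kmt2a+/+ gave a log2 fold change of 0.0035 ± 0.26 (95% CI -0.58 to 0.58), or -0.14 ± 0.25 without Kmt2a+/+ replicate 1, and nes-cre+/-Kmt2a+/LSL against Kmt2a+/LSL gave 0.0031 ± 0.26.

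Suz12 (chr11:79993106-80034123, plus strand, ENSMUSG00000017548), the scaffold that holds the PRC2 core together, had 3607, 1352 and 1271 in Kmt2a+/+, 2207, 1876 and 1609 in Kmt2a+/LSL, 1992, 1826 and 1801 in nes-cre+/-, and 2556, 1894 and 1778 in nes-cre+/-Kmt2a+/LSL. Kmt2a+/+ replicate 1 was the highest of the 12 and the other 2 Kmt2a+/+ libraries were the 2 lowest. The fitted log2 difference between Kmt2a+/LSL and Kmt2a+/+ was -0.13 ± 0.35 (95% CI -0.89 to 0.63, adjusted p = 1) with that library and 0.53 ± 0.18 without it (95% CI 0.14 to 0.93, adjusted p = 0.551), the latter under an unadjusted p of 0.05. For nes-cre+/- against Kmt2a+/+ the value without that library was 0.51 ± 0.18 (adjusted p = 0.733), again under an unadjusted p of 0.05. Without that library, 8.95% of genes passed an unadjusted p under 0.05 in the first comparison and 6.09% in the second. nes-cre+/-Kmt2a+/LSL against Kmt2a+/LSL, which does not use Kmt2a+/+, gave 0.13 ± 0.35 (95% CI -0.63 to 0.89).

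Eed (chr7:89954654-89980983, minus strand, ENSMUSG00000030619), the subunit that binds trimethylated H3K27 and activates the enzyme, behaved unlike the other 9. Its normalized counts were 7.13, 257 and 305 in Kmt2a+/+, 223, 3.89 and 3.10 in Kmt2a+/LSL, 228, 10.2 and 221 in nes-cre+/-, and 217, 5.38 and 449 in nes-cre+/-Kmt2a+/LSL. It lay at 3.10 to 10.2 in 5 libraries, at least 1 of every genotype and 2 of Kmt2a+/LSL, and at 217 to 449 in the other 7. Of 10533 genes with at least 200 normalized counts in some library, 48 (0.456%) had, like Eed, 5 or more libraries under 5% of their highest, a rule set after Eed's values had been seen. Its log2 fold change for Kmt2a+/LSL relative to Kmt2a+/+ was -1.31 ± 1.68 (95% CI -5.00 to 2.38), and the gene's biological coefficient of variation was 1.3, against 0.208 to 0.392 for the other 9 genes. Without Kmt2a+/+ replicate 1 that value was -1.86 ± 1.56. Eed gave 1.54 ± 1.69 for nes-cre+/-Kmt2a+/LSL against Kmt2a+/LSL. Both rested on Kmt2a+/LSL replicate 1, the single library of its genotype with Eed above 3.89. With it left out they were -5.72 ± 2.18 and 5.95 ± 2.20, and the difference between the LSL effects went from 1.85 to 6.26 ± 2.53 (adjusted p = 1 in each but the last, where it was 0.9999). All 3 then passed an unadjusted p under 0.05, as did 1.14%, 1.11% and 1.33% of all genes in these comparisons. Over its annotated transcripts, 7.61% of 31-base words were shared with other genes, most of them with E230029C05Rik, which was not analysed here. What sets the 2 levels of Eed was not tested.

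Jarid2 (chr13:44729474-44921643, plus strand, ENSMUSG00000038518) and Mtf2 (chr5:108065674-108109004, plus strand, ENSMUSG00000029267) are accessory subunits that help bring PRC2 to its targets. Jarid2 had 1734, 2736 and 2326 in Kmt2a+/+, 1880.1, 2117 and 2532 in Kmt2a+/LSL, 2042, 2491 and 2722 in nes-cre+/-, and 2010.1, 2654 and 2185 in nes-cre+/-Kmt2a+/LSL, with the narrowest spread of the 10 genes at 1.58-fold from lowest to highest. Kmt2a+/LSL against Kmt2a+/+ gave a log2 fold change of -0.058 ± 0.21 (95% CI -0.51 to 0.40), or -0.22 ± 0.17 without Kmt2a+/+ replicate 1, and all genotypes overlapped. Mtf2 had 1043, 491 and 372 in Kmt2a+/+, 724, 616 and 517 in Kmt2a+/LSL, 681, 491 and 601 in nes-cre+/-, and 860.1, 619 and 469.7 in nes-cre+/-Kmt2a+/LSL, again with Kmt2a+/+ replicate 1 the highest. Its value for Kmt2a+/LSL against Kmt2a+/+ was -0.035 ± 0.36 with and 0.52 ± 0.26 without that library (adjusted p = 0.564). The genotypes of Mtf2 overlapped with all 12 libraries in view, and 6.42% of its 31-base words were shared, nearly all with Tmed5.

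Rnf2 (chr1:151458004-151500955, minus strand, ENSMUSG00000026484), the catalytic ubiquitin ligase of PRC1, had 2196, 1367 and 1035 in Kmt2a+/+, 1678, 1756 and 1332 in Kmt2a+/LSL, 1468, 1499 and 1502 in nes-cre+/-, and 1353, 1267 and 1405 in nes-cre+/-Kmt2a+/LSL. Its 3 nes-cre+/- libraries differed little, at 1489 ± 18.9 (SD, n = 3), and the 3 nes-cre+/-Kmt2a+/LSL libraries lay below all of them, at 1342 ± 69.5. With all 12 libraries this was the only case among the 10 genes and 4 pairs of genotypes in which libraries did not overlap. So 1 of 10 genes in this pair stands beside 6.68% of all genes (3.1% higher and 3.58% lower). In the other pairs 0 of 10 stand beside 4.05% for Kmt2a+/LSL against Kmt2a+/+ (2.3% higher), 7.1% for nes-cre+/-Kmt2a+/LSL against Kmt2a+/LSL (3.57% lower) and 4.35% for nes-cre+/- against Kmt2a+/+ (2.82% higher). The log2 fold change was -0.15 ± 0.24 (95% CI -0.68 to 0.37, adjusted p = 1), and the exact permutation test gave p = 0.1, the smallest it can give. nes-cre+/-Kmt2a+/LSL against Kmt2a+/LSL gave -0.24 ± 0.24. Kmt2a+/LSL against Kmt2a+/+ gave 0.053 ± 0.24 with and 0.41 ± 0.15 without Kmt2a+/+ replicate 1 (adjusted p = 0.551). In the latter fit, the LSL effect with nestin-Cre minus that without was -0.56 ± 0.20 (adjusted p = 0.995), and both passed an unadjusted p under 0.05, as did 3.31% of genes for that difference.

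Bmi1 (chr2:18677018-18686629, plus strand, ENSMUSG00000026739), the Polycomb partner of Rnf2 that is needed for neural stem cell self-renewal, had 6679, 2492 and 2081 in Kmt2a+/+, 3022, 3357 and 2439 in Kmt2a+/LSL, 3244, 2699 and 2762 in nes-cre+/-, and 4284, 2549 and 2592 in nes-cre+/-Kmt2a+/LSL. Kmt2a+/+ replicate 1 again lay highest, at 2.92 times the mean of the other 2 Kmt2a+/+ libraries. Kmt2a+/LSL against Kmt2a+/+ gave -0.35 ± 0.39 (95% CI -1.20 to 0.50) with it and 0.36 ± 0.23 (adjusted p = 0.616) without it. A share of 28.2% of its 31-base words was common to other genes, nearly all to Gm5946, so its count is uncertain to the extent that reads were split between them.

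Cbx2 (chr11:119022962-119031270, plus strand, ENSMUSG00000025577) and Cbx8 (chr11:119036305-119040969, minus strand, ENSMUSG00000025578) are the chromodomain subunits that read trimethylated H3K27, and they lie side by side on chromosome 11. Cbx2 had 138, 330.5 and 513 in Kmt2a+/+, 385, 288 and 375 in Kmt2a+/LSL, 426, 335 and 332 in nes-cre+/-, and 239, 359 and 326 in nes-cre+/-Kmt2a+/LSL. Cbx8 had 57.0, 241 and 251 in Kmt2a+/+, 223, 234 and 257 in Kmt2a+/LSL, 223, 220.2 and 252 in nes-cre+/-, and 128, 227 and 241 in nes-cre+/-Kmt2a+/LSL. All genotypes overlapped for both genes, and Kmt2a+/+ replicate 1 was the lowest library for each, 3.05 times below the mean of the other Kmt2a+/+ libraries for Cbx2 and 4.31 times below for Cbx8. For Cbx8, Kmt2a+/LSL against Kmt2a+/+ gave 0.37 ± 0.44 with and -0.049 ± 0.24 without it. For Cbx2, the same comparison gave 0.090 ± 0.38 with and -0.28 ± 0.24 without it. In Kmt2a+/LSL, Cbx8 had the smallest spread for its level of the 10 genes, at 238 ± 17.6 (SD, n = 3).

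Leaving out Kmt2a+/+ replicate 1 turned the sign of the fitted change in 7 of the 10 genes for Kmt2a+/LSL against Kmt2a+/+, in 9 for nes-cre+/- against Kmt2a+/+ and in 7 for the difference between the LSL effects. It turned 1 for nes-cre+/-Kmt2a+/LSL against Kmt2a+/LSL (Ezh1, whose change is near 0) and 0 for nes-cre+/-Kmt2a+/LSL against nes-cre+/-, neither of which compares Kmt2a+/+, though its libraries share the estimate of spread and the scaling. The median over the 10 genes for Kmt2a+/LSL against Kmt2a+/+ went from -0.047 to 0.16, beside 0.0011 and 0.00 over all genes. Without that library, Kmt2a+/LSL no longer overlapped Kmt2a+/+ for Ezh2, Suz12 and Mtf2 (higher) and Eed (lower). The nes-cre+/- libraries no longer overlapped Kmt2a+/+ for Suz12, Rnf2 and Bmi1 (higher) and Eed (lower). Only 2 Kmt2a+/+ libraries then remain, which separate more easily than 3, and the share of all genes was not computed.

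**Figure D2:**
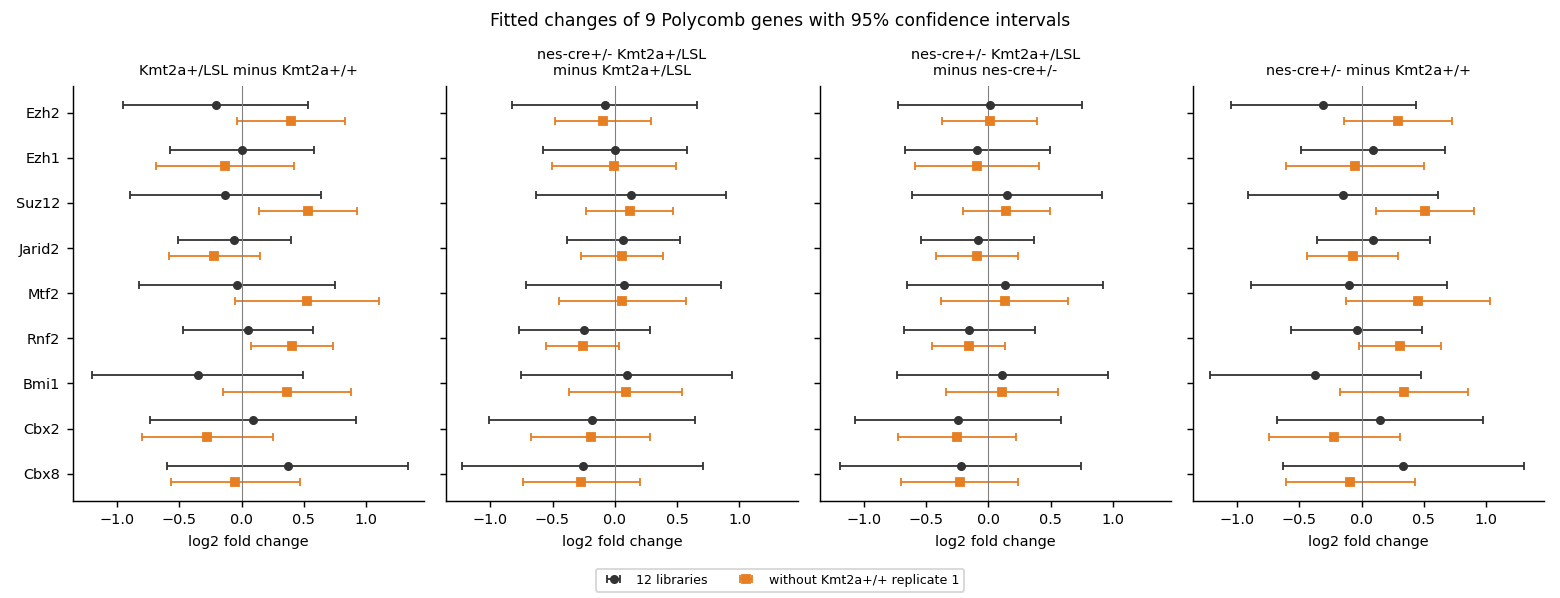
Fitted log2 fold changes (horizontal axis) of 9 Polycomb genes with 95% confidence intervals in 4 comparisons, from 12 libraries (circles) and without Kmt2a+/+ replicate 1 (squares); Eed is left out because its intervals span several units. In both comparisons against Kmt2a+/+ the values of Ezh2, Suz12, Mtf2 and Bmi1 move from below to above 0.

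By Pearson's r, 5 of the 10 Polycomb genes varied together over the libraries, 4 others varied against them, and Eed stood apart. Over the 12 libraries, Pearson's r of log2 CPM was 0.94 for Suz12 and Mtf2, 0.94 for Suz12 and Bmi1 and 0.92 for Ezh2 and Suz12. It was -0.93 for Bmi1 and Cbx8, and -0.51 for the alternative methyltransferases Ezh1 and Ezh2. Among Ezh2, Suz12, Mtf2, Rnf2 and Bmi1 the 10 pairs had r between 0.73 and 0.94. Against Cbx2, Cbx8, Jarid2 and Ezh1 their 20 pairs had r between -0.93 and -0.28. Over the 11 libraries without Kmt2a+/+ replicate 1, the same ranges were 0.40 to 0.90 and -0.84 to -0.034, with the same signs. The medians of the pairs went from 0.86 to 0.70 and from -0.75 to -0.51. Cbx2 and Cbx8 had r = 0.89 with and 0.63 without that library, and Ezh1 and Jarid2 0.77 and 0.73. These 4 genes did not form 1 block: Ezh1 and Cbx2 had 0.27 and -0.057, Ezh1 and Cbx8 0.36 and 0.049, and Jarid2 and Cbx2 0.49 and 0.080. Spearman's rank correlation for Cbx2 and Cbx8 was only 0.37 with and 0.18 without that library. For Ezh2 and Cbx2 it was -0.15 and 0.11, so by ranks Cbx2 did not clearly vary against Ezh2. The replicate number went with some of these genes. Replicate 1 held the highest value in 4 of 4 genotypes for Ezh2, Suz12 and Mtf2 and in 3 of 4 for Bmi1, and the lowest in 4 of 4 for Jarid2 and in 3 of 4 for Cbx8 and Ezh1. Rnf2 and Cbx2 showed no such pattern, with replicate 1 the highest in 1 of 4 and lowest in 1 of 4 genotypes for Rnf2 and the highest in 2 of 4 and lowest in 2 of 4 for Cbx2, and Eed had it highest in 2 of 4 and lowest in 1 of 4. Replicate 3 was the lowest in 4 of 4 genotypes for Suz12 and in 3 of 4 for Ezh2 and Mtf2, and the highest in 4 of 4 for Cbx8. The labels do not say what libraries of 1 number share. These values describe points that share a library, its depth and its base composition, and they carry no test.

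**Figure D3:**
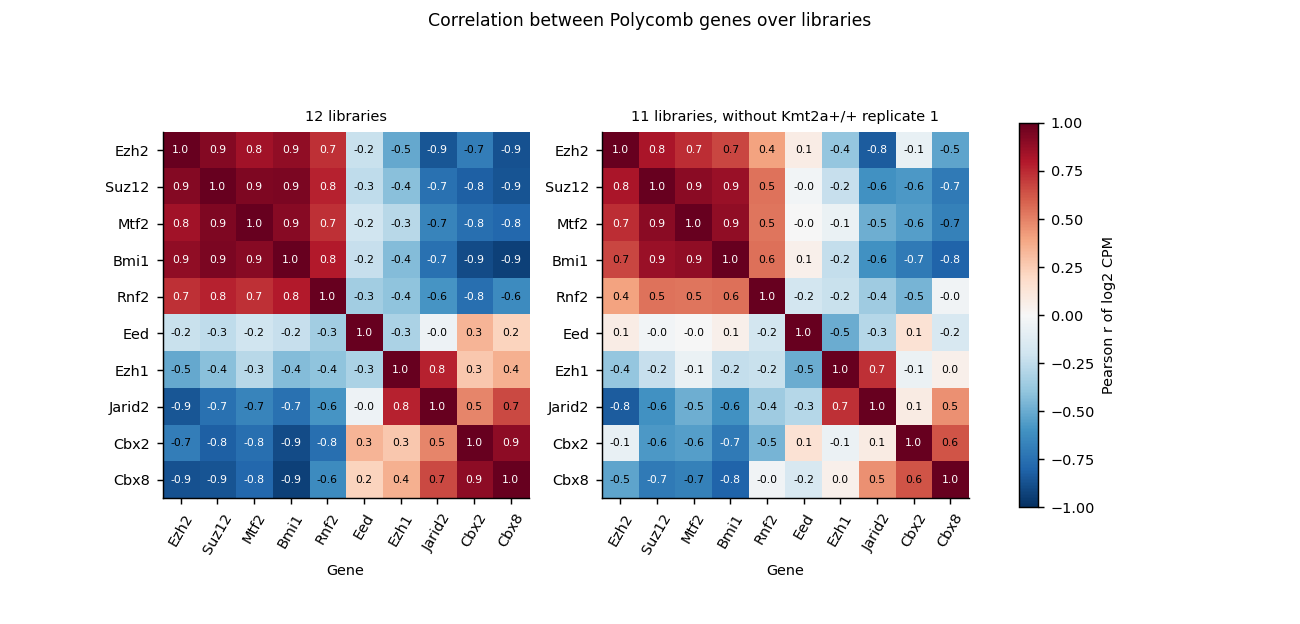
Pearson's r of log2 CPM between the 10 Polycomb genes over 12 libraries (left) and over the 11 without Kmt2a+/+ replicate 1 (right), as colour and value. Ezh2, Suz12, Mtf2, Bmi1 and Rnf2 form a positive block and are negative against Cbx2, Cbx8, Jarid2 and Ezh1, paler in the right panel. Eed has r between -0.35 and 0.34 with the others in the left panel and reaches -0.49 with Ezh1 in the right.

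Base composition moved with these differences between libraries. The GC content of the longest protein-coding transcript was lowest in Mtf2 (38.2%), Rnf2 (39.5%), Bmi1 (40.2%), Suz12 (41.6%) and Ezh2 (44.4%). It was 47.8% in Eed, 49.1% in Jarid2, 51.2% in Ezh1, 54.9% in Cbx8 and 57.6% in Cbx2. Over the 9 genes other than Eed, GC content and the log2 difference of Kmt2a+/+ replicate 1 from the other Kmt2a+/+ libraries had r = -0.93, over all 10 r = -0.64, and over 11615 genes of mean count at least 50 r = -0.71. Of genes under 45% GC, 93.8% were higher in that library, and of genes at 54% or more, 4.03%. Over genes, the correlation of a library's deviation with GC content ran from -0.68 in Kmt2a+/+ replicate 1, with -0.41 in nes-cre+/-Kmt2a+/LSL replicate 1 next, to 0.69 in Kmt2a+/+ replicate 3. Genes are not independent replicates. With an offset for GC content in the fit, a choice made after seeing the data, the median interval width for Kmt2a+/LSL against Kmt2a+/+ was 0.74 and again 0 of the 10 genes were called or passed an unadjusted p under 0.05 in the 5 comparisons. In that fit Suz12 stood at 0.053 ± 0.14, Ezh2 at -0.070 ± 0.20 and Bmi1 at -0.14 ± 0.14 for Kmt2a+/LSL against Kmt2a+/+. Rnf2 gave the value farthest from 0 relative to its error in that fit, -0.28 ± 0.13 for nes-cre+/-Kmt2a+/LSL against Kmt2a+/LSL (adjusted p = 1). With the replicate number as a block beside the GC offset it was -0.30 ± 0.12 (adjusted p = 1) and passed an unadjusted p under 0.05, as did 2.45% of all genes.

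**Figure D4:**
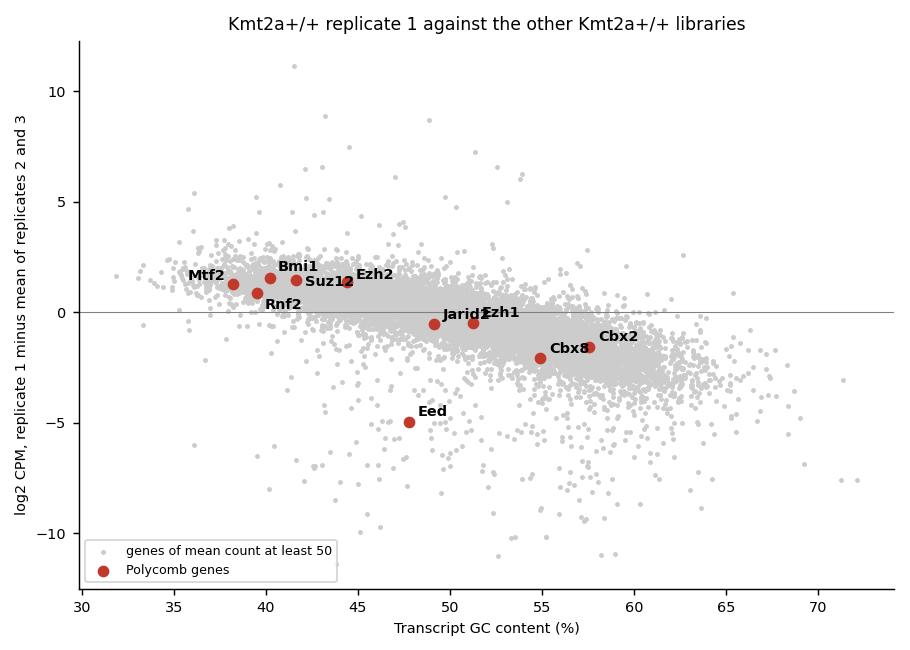
Transcript GC content (horizontal axis, percent) against the log2 CPM of Kmt2a+/+ replicate 1 minus the mean of the other 2 Kmt2a+/+ libraries, for genes of mean count at least 50 (grey) and the 10 Polycomb genes (red). The 5 Polycomb genes under 45% GC lie above 0 and the other 5 below, with Eed at -4.95.

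Proliferation genes moved with some of the same genes. The mean log2 CPM of 18 cell cycle genes was highest in Kmt2a+/+ replicate 1 (7.18) and lowest in Kmt2a+/+ replicate 2 (5.29), with Mki67, a marker of cycling cells, at 34232 and 4927 normalized counts. Its r over 12 libraries was 0.83 with Ezh2, -0.87 with Jarid2 and -0.64 with Ezh1. Without Kmt2a+/+ replicate 1 these were 0.82, -0.82 and -0.57. For Suz12 r was 0.69 and 0.53, for Bmi1 0.58 and 0.31, and for Rnf2 0.38 and 0.031. Of the 5 genes that varied together, Ezh2 and Suz12 had the highest values over both sets of libraries. The mean was highest in replicate 1 in 4 of 4 genotypes. How far proliferation enters the differences between genotypes was not tested. By edgeR, 0 of the 18 genes passed an unadjusted p under 0.05 in any of the 5 comparisons.

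Among 11676 genes of mean count at least 50, those most like each Polycomb gene over the 12 libraries were named by Pearson's r of log2 CPM. Closest to Ezh2 were Cep295 (0.991), Hat1 (0.990) and Haus3 (0.987), where Hat1 is a histone acetyltransferase and Haus3 a subunit of a mitotic spindle complex. Close to Suz12 were Cnot6 (0.990) and Gtf2e2 (0.988), with Cnot6 a deadenylase of the CCR4-NOT complex and Gtf2e2 a general transcription factor, and closest to Bmi1 were Tgs1 (0.992), Uba6 (0.991) and Rps6ka3 (0.990). Mtf2 was nearest to S100pbp (0.971), Pcgf3 (0.969) and Cpsf6 (0.963), of which Pcgf3 is a PRC1 subunit. Rnf2 was nearest to Odf2l (0.963), Eif2ak2 (0.956) and Zfp35 (0.944). Cbx2 was nearest to Nelfcd (0.988), Mrpl38 (0.985) and Taf6 (0.980), and Cbx8 to Vasp (0.996), Tmed10 (0.994) and Borcs6 (0.993). Nelfcd and Taf6 are general transcription proteins, and Vasp regulates actin. Ezh1 was nearest to Timp2 (0.948), Appl2 (0.922) and Grk3 (0.921), and Jarid2 to Nfasc (0.967), Prss23 (0.957) and Myo10 (0.949). Eed had the lowest values, with Nol12 (0.846), Tpgs1 (0.821) and Pemt (0.792).

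Levels between genes were compared per kilobase of transcript. With the longest protein-coding transcript as the length, the median over 12 libraries was 36.1 CPM per kilobase for Ezh2, 31.7 for Bmi1, 18.7 for Rnf2, 17.7 for Suz12 and 15.7 for Jarid2. Mtf2 followed at 6.26, Eed at 4.42, Ezh1 at 4.23, Cbx2 at 3.66 and Cbx8 at 2.68. Ezh2 spanned 28.3 to 78.6 over the libraries and Ezh1 2.85 to 5.39, with no overlap. Neighbours in this order overlapped over the libraries, except Jarid2 and Mtf2. The length planned at first, the median over annotated protein-coding transcripts, is shortened by incomplete transcripts, to 0.617 kb for Bmi1 and 0.778 kb for Mtf2, and put Bmi1 at 185 and Mtf2 at 32.7. With the union of annotated exons Bmi1 came first at 28.7, then Suz12 at 15.6, Ezh2 at 15.1, Rnf2 at 14.5 and Jarid2 at 9.69, so Ezh2 lost the first place. Eed, Ezh1, Cbx2 and Cbx8 were the lowest 4 under each of the 3 lengths.

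**Figure D5:**
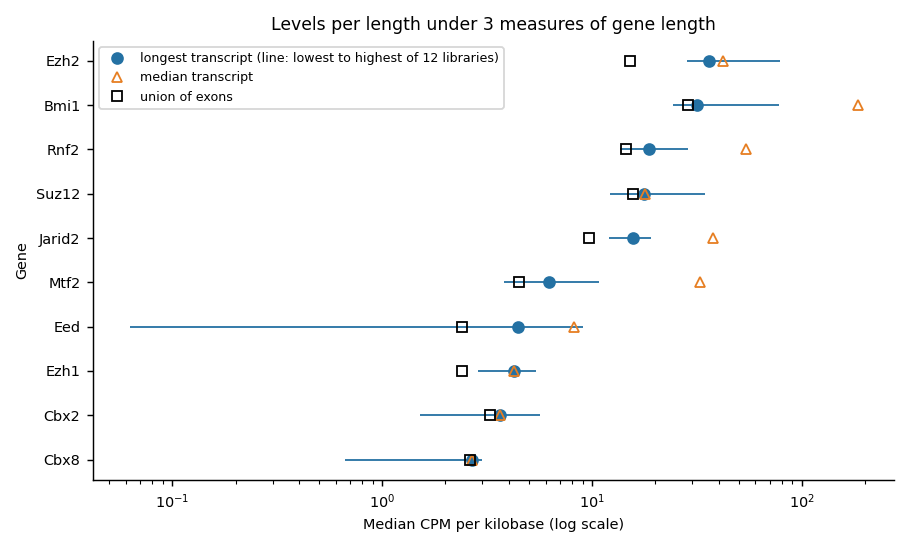
Median CPM per kilobase (log axis) of each Polycomb gene under 3 measures of its length, with the lowest to highest of 12 libraries as a line for the longest transcript. The main catalytic subunit Ezh2, with Bmi1, Rnf2, Suz12 and Jarid2, lies above Mtf2, Eed, Ezh1, Cbx2 and Cbx8 for the longest transcript and the union of exons.

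The other genes of the complexes gave few values past an unadjusted p of 0.05. Of 13 PRC2 genes tested, the 6 above included, 0 passed it in any of the 5 comparisons, and of 25 PRC1 genes 1 passed it, Bcor for Kmt2a+/LSL against Kmt2a+/+ (background 1.79%). None was called by edgeR. Medians of the log2 fold change for Kmt2a+/LSL against Kmt2a+/+ were -0.13 over the PRC2 genes tested and 0.053 over the PRC1 genes, and 0.10 and -0.11 without Kmt2a+/+ replicate 1, so both turned sign.

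Bcor, a corepressor subunit of a variant PRC1, had normalized counts of 824, 704 and 831 in Kmt2a+/+, 597, 561 and 586 in Kmt2a+/LSL, 763, 764 and 727 in nes-cre+/-, and 688, 725 and 675 in nes-cre+/-Kmt2a+/LSL. All other libraries lay above the 3 of Kmt2a+/LSL, and the 3 of nes-cre+/-Kmt2a+/LSL lay between Kmt2a+/LSL and Kmt2a+/+ except that Kmt2a+/+ replicate 2 fell within their range. In Kmt2a+/LSL it was -0.43 ± 0.15 from Kmt2a+/+ on the log2 scale (adjusted p = 1), and -0.40 ± 0.12 without Kmt2a+/+ replicate 1 (adjusted p = 0.551). For nes-cre+/-Kmt2a+/LSL against Kmt2a+/LSL it was 0.26 ± 0.15 (adjusted p = 1). Bcor was thus not called in either direction. Its libraries did not overlap in 3 of the 4 pairs of genotypes compared: Kmt2a+/LSL lay below Kmt2a+/+ (1.76% of all genes did so), nes-cre+/-Kmt2a+/LSL lay above Kmt2a+/LSL (3.54%), and nes-cre+/-Kmt2a+/LSL lay below nes-cre+/- (3.58%), the last by 725 against 727 at the nearest libraries.

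Next in the PRC1 list outside the 10 genes, by p for Kmt2a+/LSL against Kmt2a+/+, were Pcgf5, at -0.82 ± 0.41 (adjusted p = 1), and Usp7, at -0.29 ± 0.24. Without Kmt2a+/+ replicate 1 they were at -0.54 ± 0.41 and 0.13 ± 0.11, so Usp7 turned sign. For nes-cre+/-Kmt2a+/LSL against Kmt2a+/LSL they were Pcgf2, at -0.72 ± 0.71, and Kdm2b, at 0.11 ± 0.18. Pcgf5 and Pcgf2 are alternatives to Bmi1 as the partner of the ubiquitin ligase. In the PRC2 list outside the 10 genes, the smallest p for Kmt2a+/LSL against Kmt2a+/+ belonged to Rbbp7, a histone-binding core subunit (-0.24 ± 0.28), Aebp2 (-0.18 ± 0.22) and Lcor (-0.13 ± 0.22). All 3 turned sign when Kmt2a+/+ replicate 1 was left out, to 0.15 ± 0.21, 0.14 ± 0.13 and 0.14 ± 0.17. For nes-cre+/-Kmt2a+/LSL against Kmt2a+/LSL it belonged to Lcor (0.21 ± 0.22), Phf19 (-0.19 ± 0.28) and Epop (0.41 ± 0.66). Without Kmt2a+/+ replicate 1, Epop (log2 fold change -0.77), Rybp (0.50), Suz12, Rnf2 and Bcor passed an unadjusted p under 0.05 for Kmt2a+/LSL against Kmt2a+/+, beside 8.95% of all genes. In the same fits Cbx7 (-0.59) passed it for nes-cre+/-Kmt2a+/LSL against nes-cre+/- (3.23% of all genes), and Bcor for nes-cre+/-Kmt2a+/LSL against Kmt2a+/LSL (3.89%), with 0 called. The 28 other PRC1 and PRC2 genes of mean count at least 50 split by base composition as the 10 did: all 9 under 45% GC were higher in Kmt2a+/+ replicate 1 than in the other Kmt2a+/+ libraries and 0 of the 11 at 54% GC or more were.

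Among 13 genes of the Polycomb deubiquitinase (PR-DUB) with its associated proteins and the H3K27 demethylases, 1 passed an unadjusted p under 0.05 in any comparison. Kdm6a, the X-linked enzyme that removes the PRC2 mark, had 963, 664 and 740.1 in Kmt2a+/+, 720.1, 841 and 685 in Kmt2a+/LSL, 1142, 1293 and 951 in nes-cre+/-, and 969.9, 791 and 1038 in nes-cre+/-Kmt2a+/LSL. On average nes-cre+/- was the highest genotype, and it overlapped Kmt2a+/+ only through replicate 1 of the latter. For nes-cre+/- against Kmt2a+/+ its log2 fold change was 0.52 ± 0.20 (adjusted p = 1, background 1.4%), and 0.68 without Kmt2a+/+ replicate 1 (adjusted p = 0.733). For nes-cre+/-Kmt2a+/LSL against Kmt2a+/LSL it was 0.32 ± 0.20 (adjusted p = 1). The study used male and female animals, sex was not a term in the fits, and its part in these levels was not tested. The smallest p for Kmt2a+/LSL against Kmt2a+/+ belonged to Kdm1b (-0.29 ± 0.20), Mbd5 (-0.28 ± 0.20) and Ogt (-0.24 ± 0.31). These were near 0 without Kmt2a+/+ replicate 1, at -0.042 ± 0.14, -0.040 ± 0.15 and -0.017 ± 0.31. Asxl3 (0.88 ± 1.20) and Mbd6 (-0.38 ± 0.60) followed Kdm6a for nes-cre+/-Kmt2a+/LSL against Kmt2a+/LSL. When Kmt2a+/+ replicate 1 was left out, Mbd6 passed for nes-cre+/-Kmt2a+/LSL against nes-cre+/- (-0.52; background 3.23%), with 0 called. The list's median for Kmt2a+/LSL against Kmt2a+/+ was 0.047, and -0.048 without Kmt2a+/+ replicate 1, so its sign turned.

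The Hox genes, the loci at which the complexes were first studied, were low in these cultures, while other Polycomb targets ranged widely. Of 39 Hox genes listed, 18 were in the table, 9 passed the filter, and the highest value of any in any library was 29.9 normalized counts. None of the 9 passed an unadjusted p under 0.05. Their median log2 fold change for Kmt2a+/LSL against Kmt2a+/+ was -0.50 and 0.85 without Kmt2a+/+ replicate 1, values that rest on few counts. Of 30 other developmental targets 25 were in the table, 21 were tested, and 8 had a mean count of at least 50, among them Lhx2, Nkx2-2 and the Cdkn2a locus. Of the 25, 16 stayed under 50 normalized counts in every library. Again 0 passed an unadjusted p under 0.05 in any of the 5 comparisons, and the median for Kmt2a+/LSL against Kmt2a+/+ was -0.17, or -0.21 without Kmt2a+/+ replicate 1.

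Cdkn2a, which encodes the cell cycle inhibitor p16 and p19Arf, had 319, 969.6 and 1826 in Kmt2a+/+, 903, 724 and 1138 in Kmt2a+/LSL, 944, 902 and 1194 in nes-cre+/-, and 841, 1285 and 966 in nes-cre+/-Kmt2a+/LSL. It was lowest in Kmt2a+/+ replicate 1 and highest in Kmt2a+/+ replicate 3, and the genotypes overlapped. For Kmt2a+/LSL against Kmt2a+/+ it gave -0.17 ± 0.46 with and -0.61 ± 0.27 without Kmt2a+/+ replicate 1. The latter was under an unadjusted p of 0.05 (adjusted p = 0.551 by edgeR), as were 8.95% of all genes. Nkx2-2, a homeobox factor of the oligodendrocyte lineage, had 249, 366 and 528 in Kmt2a+/+, 281, 326 and 333 in Kmt2a+/LSL, 459.6, 409.7 and 390.2 in nes-cre+/-, and 364, 499 and 484 in nes-cre+/-Kmt2a+/LSL. Its log2 fold change was -0.28 ± 0.26 (adjusted p = 1) for Kmt2a+/LSL against Kmt2a+/+ and 0.52 ± 0.26 (adjusted p = 1) for nes-cre+/-Kmt2a+/LSL against Kmt2a+/LSL, in which every nes-cre+/-Kmt2a+/LSL library lay above every Kmt2a+/LSL library (background 3.54% of genes higher without overlap). Without Kmt2a+/+ replicate 1, the values were -0.51 ± 0.20 and 0.51 ± 0.18, under an unadjusted p of 0.05 in both, with an adjusted p of 0.551 and 1 by edgeR. In these fits 8.95% and 3.89% of all genes passed. The difference between the LSL effects was then 0.60 ± 0.26 (adjusted p = 0.995), also under an unadjusted p of 0.05, as were 3.31% of genes. These comparisons share the Kmt2a+/LSL libraries. Lhx9 (-0.42 ± 0.41) and Lhx2 (-0.22 ± 0.31) came next for Kmt2a+/LSL against Kmt2a+/+, and without Kmt2a+/+ replicate 1 Lhx9 turned sign to 0.24 ± 0.30 while Lhx2 stood at -0.49 ± 0.23. Next for nes-cre+/-Kmt2a+/LSL against Kmt2a+/LSL were Lhx9 (0.44 ± 0.41) and Irx3 (-0.27 ± 0.41). Of the 21 targets tested, 2 lay higher without overlap in that comparison, Lhx9 and Nkx2-2, and 1 lower, the low-count gene T. Over all genes these shares were 3.54% and 3.57%.

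Of the 18 cell cycle genes, those with the smallest p for Kmt2a+/LSL against Kmt2a+/+ were Birc5 (-0.42 ± 0.52), Mki67 (-0.41 ± 0.53) and Mcm4 (-0.34 ± 0.45), and for nes-cre+/-Kmt2a+/LSL against Kmt2a+/LSL they were Mcm5 (0.42 ± 0.38), Cdk1 (-0.23 ± 0.37) and Mcm3 (-0.19 ± 0.33). Birc5, Mki67 and Mcm4 turned sign without Kmt2a+/+ replicate 1, to 0.51 ± 0.37, 0.62 ± 0.34 and 0.36 ± 0.35. The list's median for Kmt2a+/LSL against Kmt2a+/+ was -0.11 and 0.52 without Kmt2a+/+ replicate 1. Bub1 then passed an unadjusted p under 0.05 (1.07 ± 0.44, adjusted p = 0.551 by edgeR), as did 8.95% of all genes.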

How the data were processed

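Poly(A) RNA of 12 hippocampal neural progenitor cultures had been sequenced, 3 for each of 4 genotypes. The authors pseudoaligned the reads with kallisto 0.48.0 to the mm10 (GRCm38) transcriptome and summed estimated counts per gene with tximport, and the deposited values are these counts, all whole, not normalized, for Ensembl identifiers. Identifiers were matched to symbols with the GRCm38 annotation, without renaming.

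Genes whose counts summed to over 10, with at least 2 libraries above 0, were fitted by genotype with edgeR 4.0.16 (R 4.3.3; TMM scaling, quasi-likelihood F-test) over all 12 libraries, and p-values were adjusted over all genes by the Benjamini-Hochberg method. A gene was called at an adjusted p under 0.05. SE is the absolute log2 fold change over the square root of F. Replicates were compared with two-sided exact permutation tests. Alternatives were DESeq2 1.42.0, an empirical null on its z-scores, limma-voom (limma 3.58.1), DESeq2 size factors, other filters, a replicate block, 9 libraries of 3 genotypes and each library left out. A GC offset and the longest-transcript length were added after the data were seen. CPM used a prior count of 2 on the log scale. Where counting error bears on a value it covers sampling of reads only, and 3 counts correspond to 0.103 to 0.178 CPM over these libraries.

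The members and gene lists were chosen with earlier results of these data known. Genes named are the 10 members, Kmt2a, in each list those called or otherwise the 3 non-members of mean count at least 50 with the smallest p in each of 2 comparisons, the 3 genes most correlated with each member (for Suz12, 1 of them is not reported here), and every gene behind a count of 5 or fewer.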

Additional observations from a re-analysis of the deposited data

How the results depend on the processing

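None of the 10 Polycomb genes was called under the alternatives run, except that Eed was not tested with at least 10 counts in every library, and the other list genes were refitted for the text only without Kmt2a+/+ replicate 1. The lowest adjusted p over all alternatives was 0.353. The robust quasi-likelihood fit and the empirical null change p-values and leave the fold changes of edgeR and DESeq2 as they are, so their signs are no check. A turned sign here moves between values that were not called in either fit. The widths of the intervals limit what 3 libraries a genotype show. Over all genes, DESeq2's Wald test called 7 for Kmt2a+/LSL against Kmt2a+/+, 7 for nes-cre+/-Kmt2a+/LSL against Kmt2a+/LSL, 3 for nes-cre+/-Kmt2a+/LSL against nes-cre+/-, 3 for nes-cre+/- against Kmt2a+/+, 10 for the difference between LSL effects, against 0 in the reported fits. Over all genes, the empirical null on its z-scores called 32 for Kmt2a+/LSL against Kmt2a+/+, 945 for nes-cre+/-Kmt2a+/LSL against Kmt2a+/LSL, 261 for nes-cre+/-Kmt2a+/LSL against nes-cre+/-, 7 for nes-cre+/- against Kmt2a+/+, 17 for the difference between LSL effects, against 0 in the reported fits. Over all genes, limma-voom with quality weights called 2 for Kmt2a+/LSL against Kmt2a+/+, 2 for nes-cre+/-Kmt2a+/LSL against Kmt2a+/LSL, against 0 in the reported fits. Over all genes, an offset for GC content called 2 for Kmt2a+/LSL against Kmt2a+/+, 1 for nes-cre+/-Kmt2a+/LSL against Kmt2a+/LSL, against 0 in the reported fits. Over all genes, an offset for GC content and replicate block called 2 for Kmt2a+/LSL against Kmt2a+/+, 1 for nes-cre+/-Kmt2a+/LSL against Kmt2a+/LSL, against 0 in the reported fits. Over all genes, an adjusted p under 0.1 called 1 for nes-cre+/-Kmt2a+/LSL against Kmt2a+/LSL, 1 for nes-cre+/- against Kmt2a+/+, against 0 in the reported fits. With 1 library left out, the genes called over the whole table numbered 0 to 2 for Kmt2a+/LSL against Kmt2a+/+, 0 to 1 for nes-cre+/-Kmt2a+/LSL against Kmt2a+/LSL. The most were called without Kmt2a+/+ replicate 1 for Kmt2a+/LSL against Kmt2a+/+, without Kmt2a+/+ replicate 1 for nes-cre+/-Kmt2a+/LSL against Kmt2a+/LSL. Signs turned under DESeq2's Wald test with or without the empirical null for Kmt2a+/LSL against Kmt2a+/+ Ezh1 -0.031, for the difference between LSL effects Jarid2 0.021. Signs turned under limma-voom with quality weights for Kmt2a+/LSL against Kmt2a+/+ Ezh1 -0.16, Ezh2 0.39, Suz12 0.48, Mtf2 0.44, Bmi1 0.28, Cbx2 -0.12, Cbx8 -0.0039, for the difference between LSL effects Ezh1 0.029, Ezh2 -0.37, Suz12 -0.40, Jarid2 0.19, Mtf2 -0.34, Bmi1 -0.28, Cbx2 0.038, for nes-cre+/- against Kmt2a+/+ Ezh2 0.24, Suz12 0.44, Jarid2 -0.045, Mtf2 0.29, Rnf2 0.24, Bmi1 0.22, Cbx2 -0.12, Cbx8 -0.036, for nes-cre+/-Kmt2a+/LSL against nes-cre+/- Eed -0.34, Bmi1 -0.0063, for nes-cre+/-Kmt2a+/LSL against Kmt2a+/LSL Mtf2 -0.053, Bmi1 -0.068. Signs turned under DESeq2 size factors for Kmt2a+/LSL against Kmt2a+/+ Ezh1 -0.030, for the difference between LSL effects Jarid2 0.021. Signs turned under at least 10 counts in every library for Kmt2a+/LSL against Kmt2a+/+ Ezh1 -0.011. Signs turned under offset for GC content for Kmt2a+/LSL against Kmt2a+/+ Ezh1 -0.060, Suz12 0.053, Mtf2 0.12, Cbx2 -0.032, for nes-cre+/-Kmt2a+/LSL against nes-cre+/- Ezh2 -0.029, for nes-cre+/- against Kmt2a+/+ Suz12 0.054, Mtf2 0.074, Rnf2 0.061, Cbx2 -0.0082, for nes-cre+/-Kmt2a+/LSL against Kmt2a+/LSL Mtf2 -0.024, for the difference between LSL effects Mtf2 -0.10. Signs turned under offset for GC content and replicate block for Kmt2a+/LSL against Kmt2a+/+ Ezh1 -0.051, Suz12 0.061, Mtf2 0.11, Cbx2 -0.038, for nes-cre+/-Kmt2a+/LSL against nes-cre+/- Ezh2 -0.014, for nes-cre+/- against Kmt2a+/+ Suz12 0.066, Mtf2 0.067, Rnf2 0.069, Cbx2 -0.013, for nes-cre+/-Kmt2a+/LSL against Kmt2a+/LSL Mtf2 -0.024, for the difference between LSL effects Mtf2 -0.091. Signs turned under 9 libraries of the study's 3 genotypes for Kmt2a+/LSL against Kmt2a+/+ Ezh1 -0.0092. Signs turned under replicate block for nes-cre+/-Kmt2a+/LSL against Kmt2a+/LSL Ezh1 -0.011, for Kmt2a+/LSL against Kmt2a+/+ Mtf2 0.065, for nes-cre+/- against Kmt2a+/+ Mtf2 0.014, Rnf2 0.0031. The ranges over the libraries left out in turn follow for the genes whose sign turned. Leaving out each library in turn, Kmt2a+/LSL against Kmt2a+/+ spanned Ezh1 -0.14 to 0.13, Ezh2 -0.47 to 0.40, Suz12 -0.39 to 0.53, Jarid2 -0.22 to 0.10, Mtf2 -0.31 to 0.52, Rnf2 -0.16 to 0.41, Bmi1 -0.64 to 0.36, Cbx2 -0.28 to 0.57, Cbx8 -0.049 to 0.66. Leaving out each library in turn, nes-cre+/-Kmt2a+/LSL against Kmt2a+/LSL spanned Ezh1 -0.23 to 0.21, Ezh2 -0.20 to 0.10, Suz12 -0.047 to 0.25, Jarid2 -0.053 to 0.19, Mtf2 -0.18 to 0.26, Bmi1 -0.19 to 0.23. Leaving out each library in turn, nes-cre+/-Kmt2a+/LSL against nes-cre+/- spanned Ezh1 -0.32 to 0.12, Ezh2 -0.10 to 0.15, Eed -0.47 to 1.12, Suz12 -0.029 to 0.25, Jarid2 -0.21 to 0.011, Mtf2 -0.12 to 0.32, Bmi1 -0.17 to 0.24, Cbx8 -0.38 to 0.015. Leaving out each library in turn, nes-cre+/- against Kmt2a+/+ spanned Ezh1 -0.052 to 0.26, Ezh2 -0.57 to 0.29, Eed -0.88 to 0.23, Suz12 -0.40 to 0.51, Jarid2 -0.071 to 0.25, Mtf2 -0.37 to 0.45, Rnf2 -0.26 to 0.31, Bmi1 -0.66 to 0.34, Cbx2 -0.22 to 0.63, Cbx8 -0.090 to 0.63. Leaving out each library in turn, the difference between LSL effects spanned Ezh1 -0.33 to 0.12, Ezh2 -0.39 to 0.48, Suz12 -0.39 to 0.53, Jarid2 -0.18 to 0.13, Mtf2 -0.39 to 0.44, Rnf2 -0.56 to 0.014, Bmi1 -0.25 to 0.76, Cbx2 -0.81 to 0.024. Without a turned sign, Kmt2a+/LSL against Kmt2a+/+ spanned Eed -5.72 to -0.75. For nes-cre+/-Kmt2a+/LSL against Kmt2a+/LSL the ranges were Eed 0.52 to 5.95, Rnf2 -0.36 to -0.16, Cbx2 -0.31 to -0.029 and Cbx8 -0.42 to -0.022. For nes-cre+/-Kmt2a+/LSL against nes-cre+/- they were Rnf2 -0.19 to -0.11 and Cbx2 -0.37 to -0.090, and for the difference between LSL effects Eed 0.84 to 6.26 and Cbx8 -0.89 to -0.18. Same-numbered libraries deviated from their genotype means with a mean correlation of 0.084 over 18 pairs, against -0.041 over 36 other pairs, and 6 of 12 libraries were closest to their own number, so the numbers were not taken to pair cultures. The 3 same-numbered pairs of Kmt2a+/+ and nes-cre+/-Kmt2a+/LSL, genotypes not compared with each other, had 0.416, 0.294 and 0.142, and replicate 1 was highest in every genotype for Ezh2, Suz12, Mtf2 and the proliferation genes, so a shared origin of some same-numbered cultures was not settled. With the replicate number as a block and no GC offset, 0 genes were called and 0 Polycomb genes passed an unadjusted p under 0.05 by edgeR, while with both Rnf2 passed it for nes-cre+/-Kmt2a+/LSL against Kmt2a+/LSL (-0.30, 2.45% of all genes). The cause of a turned sign was not tested beyond the library or setting named. The level per kilobase moved by more than the spread over libraries with another length in 7 genes.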
